A study of Mus musculus with 8 samples.

Results

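The 2 lung libraries of a mouse tissue series were set against its 6 libraries of kidney, liver and small intestine, with 2 libraries from each tissue. Members were chosen by the tissue label alone, so lung supplied 2 of the 8 libraries. All animals were male mice of 6 to 10 weeks, given as C57BL/6 in the labels and as C57BL/6J in the methods, with the 2 libraries of a tissue from separate animals, with no treatment or engineered allele given in the labels, and all 4 organs were excised from each animal, washed in PBS and ground in liquid nitrogen before poly(A) RNA was captured. Whole tissue was ground, and no cell type was separated. The deposited values are FPKM, counted fragments scaled by transcript length and library total, for 52195 genes. A few transcripts that are very abundant in 1 tissue lower the FPKM of all others in that library, so each library was first divided by the median over genes of its ratio to the geometric mean of all libraries. This lowered the lung values relative to the rest. The deposited values were in effect multiplied by 0.551 and 0.527 for lung and between 0.906 and 1.81 for the other libraries. All levels below are these rescaled FPKM values, and all differences are log2(rescaled FPKM + 1) in lung minus the mean of the 3 other tissue means, with the standard error (SE) of a limma fit over the 4 tissues. A difference was called at an adjusted p below 0.05 and a size above 1 (2-fold). Since 1 is added before the logarithm, the difference understates the change of genes with low values.

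The lung exchanges gas across a thin epithelium pressed against a dense capillary bed. Alveolar type 1 cells are flat and cover most of the surface, while alveolar type 2 cells make surfactant, a mixture of lipid and protein that lowers surface tension. Club and ciliated cells line the airways, elastic fibres let the tissue recoil, and resident macrophages clear the air spaces. Kidney, liver and small intestine share a different set of duties, which includes reabsorption, secretion, glucose release and the breakdown of nutrients and drugs.

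A deposited FPKM of 1 was reached in 2 libraries or more by 16328 genes. Of these, 2387 (14.6%) were called higher in lung and 2616 (16%) lower. Of the genes called, 47.7% were thus higher, against 83.1% with the values as deposited, 88.7% with all libraries brought to equal sums, 76.4% with equal sums after leaving out mitochondrial genes, and 66.5% with the 6 other libraries taken as 1 group. Across all genes tested the median difference was -0.02 and the median absolute difference 0.59. A mean over 3 tissues can be carried by 1 of them, so the libraries were also compared one by one. Both lung libraries stood above all 6 others for 3601 genes (22.1%) and below all 6 for 2822 (17.3%), and at least 4-fold above for 339 (2.08%) and at least 4-fold below for 164 (1%). Of the genes called higher, 2091 (87.6%) were above every other library, and in 1382 of the 2387 the 3 other tissues lay within 2-fold of each other. Of the genes called lower, 1562 (59.7%) were below every other library, and for 1104 the other tissues differed by over 8-fold among themselves. Many genes lower in lung were thus abundant in some of the other organs and not in all. Of the 2387 genes called higher, 954 (40%) passed the filter only through the lung libraries. For such genes the filter itself favours higher values in lung, so counts that include them describe the lists and support nothing further.

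**Figure D1:**
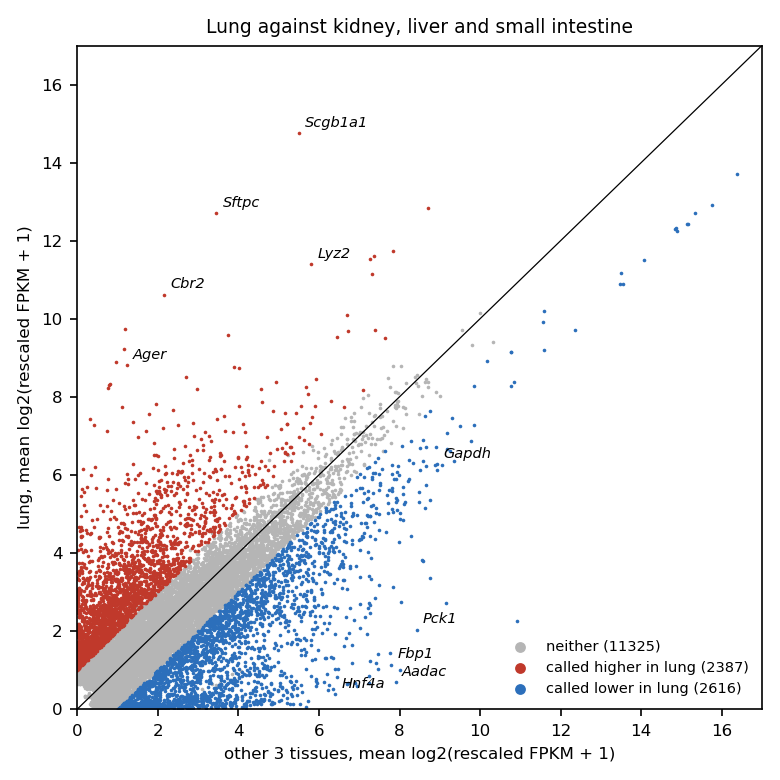
Level of each of the 16328 genes tested in lung (vertical axis) against the mean of kidney, liver and small intestine (horizontal axis), both as mean log2(rescaled FPKM + 1), with the line of equal levels. The 2387 genes called higher in lung are in red, the 2616 called lower in blue and all others in grey. Scgb1a1 and Sftpc lie farthest above the line.

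The 15 genes named as highest in lung were, in falling order of the difference, Scgb1a1, Sftpc, Sftpb, Cbr2, Sftpa1, Scgb3a2, Ager, Scgb3a1, Sftpd, Cxcl15, Chil3, Chil1, Sec14l3, Tmem100 and Mfap4. They were taken from 1127 genes that were called, stood above all other libraries and had a mean FPKM of at least 10 in lung, and 1 unnamed predicted gene was passed over. Their differences ran from 9.26 to 5.96 on the log2 scale. The rule also took 15 genes as lowest, of which 13 are reported here, namely Aadac, Cyp2d26, Fbp1, G6pc, Ces2c, Pck1, Mettl7b, Ephx2, Slc27a2, Ugt2b5, Ces2d-ps, Hnf4a and Ces1f, from -7.2 to -6.02. The 15 were taken from 614 genes that were called, stood below all other libraries and had a mean FPKM of at least 10 in each other tissue. Each of the genes the rule took kept its direction and its call under all the alternatives tried.

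**Figure D2:**
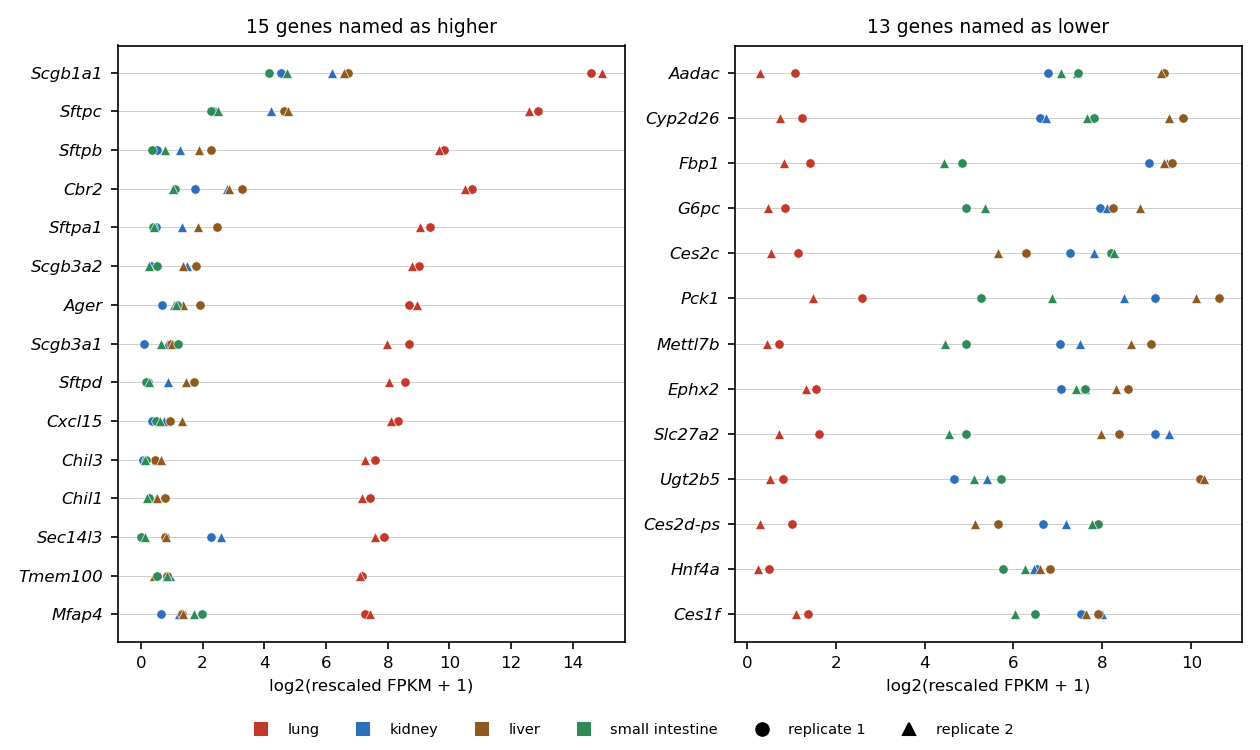
Levels of the 15 named higher and 13 named lower genes in every library, as log2(rescaled FPKM + 1) on the horizontal axis, with 1 row for each gene, a colour for each tissue and a symbol for each replicate. In every row the 2 lung points are separated from the 6 points of the other tissues, on the right for the 15 higher genes and on the left for the 13 lower genes.

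Surfactant protein genes were at high levels in both lung libraries and near absent elsewhere. Sftpc (chr14:70520949-70524081 in build GRCm38, minus strand), which encodes the hydrophobic surfactant protein C and is the defining gene of type 2 cells, had levels of 7401 and 6092 in the lung libraries and 3.84 to 26.1 elsewhere. Its difference was 9.26 ± 0.43 (SE), with an adjusted p of 2.6e-06 in limma. Sftpb, the second hydrophobic protein, had levels of 911 and 808 in lung against 0.295 to 3.81. The collectins Sftpa1 and Sftpd, which bind microbes, were next. Sftpa1 had 662 and 533 in lung and at most 4.56 in any other library, and Sftpd had 372 and 265 and at most 2.29. In each of the 4 the lower lung library was more than 100-fold above the highest other library. Of 15 genes in the type 2 list, 12 were called higher and none lower, with a median difference of 4.24 against -0.02 over all genes, and 2 of the 15 were tested only through lung. Lamp3, a membrane protein of the lamellar bodies that store surfactant, differed by 5.35 ± 0.11 (SE), and Lpcat1, which makes its disaturated phosphatidylcholine, by 4.24 ± 0.15 (SE). The phosphate carrier Slc34a2 reached 133 and 116 in lung, and it was low elsewhere apart from the second small intestine library, with 2.55 and 22.6 in the pair. Napsa, the protease that trims surfactant protein B, was called higher, by 1.63 ± 0.24 (SE), yet its levels of 54.4 and 47.8 in lung stayed far below the 404 and 720.0 of kidney. Abca3, which loads lipid into lamellar bodies, was higher in kidney, 20.4 and 12.3, than in lung, 6.83 and 7.13, and was not called. In whole tissue, more cells of a type and more RNA in each cell cannot be told apart.

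All 14 genes of the type 1 list were called higher, 13 of them above every other library, with a median of 4.68. Of the 14, 4 passed the filter only through lung. Ager (chr17:34597862-34600936, plus strand), the receptor for advanced glycation end products that marks the basal face of type 1 cells, had levels of 409.7 and 489 against 0.613 to 2.77 elsewhere, a difference of 7.58 ± 0.19 (SE). Emp2, a tetraspan membrane protein, and Cav1, the coat protein of caveolae, differed by 5.79 ± 0.14 (SE) and 4.80 ± 0.14 (SE). Aqp5, the water channel of the apical membrane, reached 74.2 and 71.6 and no more than 1.51 in any other library. The junction protein Cldn18 had levels of 61.7 and 65.0 in lung and at most 0.721 elsewhere. Hopx and Clic5 were shared with other organs in part, since Hopx reached 21.6 and Clic5 42.6 outside lung. Igfbp2 was the exception in order, with 50.2 and 61.7 in lung below the 282 and 179 of liver.

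Products of airway secretory cells came next. Scgb1a1 (chr19:9083636-9087958, minus strand), the secretoglobin of club cells, had levels of 24320.2 and 31458 in the lung libraries and 16.9 to 103 in the others, a difference of 9.26 ± 0.41 (SE). The related Scgb3a2 and Scgb3a1 differed by 7.93 ± 0.30 (SE) and 7.53 ± 0.27 (SE). Cbr2, a carbonyl reductase of club cells, had 1704 and 1451 in lung and at most 8.64 elsewhere. Of 13 genes in the secretory list, 11 were called higher and none lower, with a median of 4.14, and 5 were tested only through lung. Cyp2f2, the club cell P450 that activates naphthalene, was called higher by 4.88 ± 0.21 (SE), although liver, with 829 and 646, exceeded lung, with 419 and 449. Bpifa1 and Bpifb1, secreted defence proteins of the larger airways, were present in both lung libraries but differed between them, with 80.8 and 31.6 for Bpifa1 and 28.1 and 10.9 for Bpifb1.

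Genes of motile cilia were low in level, and most reached the filter in lung alone. Of 22 listed genes 17 were tested, 14 of those only through lung, and 14 were called higher with a median of 1.86. Foxj1, the transcription factor that starts the motile cilium programme, had levels of 21.0 and 22.8 in lung against 0 to 0.589. Tppp3, a tubulin-binding protein, differed by 5.41 ± 0.15 (SE), Dynlrb2, a dynein light chain, by 4.87 ± 0.15 (SE), and Rsph1, of the radial spoke head, by 3.41 ± 0.17 (SE). The large axonemal dynein Dnah5 stood above all other libraries at 0.894 and 0.883, but its difference of 0.90 ± 0.06 (SE) did not reach the size threshold. Markers of airway basal and neuroendocrine cells were scarce. Of 8 listed 6 did not pass the filter, the granule protein Chga was called lower through small intestine with 0.0614 and 0.0307 in lung against 25.4 and 19.7, and the basal keratin Krt5 had only 0.618 and 0.503 in the lung libraries.

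Transcription factors divided by organ. Of 21 factors listed for lung 18 were called higher, 15 above every other library, with a median of 2.30, and 6 were tested only through lung. Nkx2-1, which specifies lung epithelium in development, had levels of 29.1 and 30.8 and at most 0.198 elsewhere. The mesenchymal factors Foxf1, Tbx4 and Tbx5 differed by 4.69 ± 0.16 (SE), 3.43 ± 0.11 (SE) and 2.45 ± 0.08 (SE), and Sox18, a factor of endothelium, by 3.09 ± 0.14 (SE). Foxa2 was shared with liver, 9.11 and 9.65 in lung and 12.1 and 10.7 in liver, and Gata6 with small intestine, 5.63 and 5.85 against 21.4 and 25.5, and Gata6 was not called. Hoxa5, a homeobox gene of lung mesenchyme, was not called either, and it differed between the lung libraries, with 55.7 and 13.4, so its difference of 0.54 turned to -0.45 without lung replicate 1, -0.11 without kidney replicate 1 and 1.53 without lung replicate 2.

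Factors known from kidney, liver and gut were low in lung. Of 18 listed 17 were tested, 16 were called lower, 9 of them below every other library, and none was called higher, with a median of -2.16. Hnf4a (chr2:163506808-163572910, plus strand), a nuclear receptor that keeps hepatocytes, proximal tubule cells and enterocytes differentiated, had levels of 0.421 and 0.184 in lung. It had 91.0 and 86.5 in kidney, 53.2 and 75.7 in small intestine and 111 and 96.1 in liver, and the difference was -6.03 ± 0.18 (SE) with an adjusted p of 7.7e-07 in limma. The bile acid receptor Nr1h4 and the fasting receptor Ppara differed by -4.65 ± 0.18 (SE) and -2.88 ± 0.32 (SE). Nr1i3 was listed at 0 in both lung libraries and both kidney libraries and was not called. Cdx2 and Cdx1, the factors of intestinal identity, were called lower through small intestine alone, with 21.6 and 26.2 for Cdx2 there and at most 0.0355 in the remaining libraries.

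A set of 4 promoters is printed to show the bases in front of genes on either side of the comparison, those of Sftpb and Sftpa1 for the higher genes and those of G6pc and Hnf4a for the lower. The letters come from RefSeq (GRCm38.p6) and are the 250 bases before the annotated start, on the plus strand in each case. Capitals mark CTCAAG (the type bound by NKX2 factors), CAAAGTC (HNF4), GTTAAT (an HNF1 half-site) and TATAAA, the box near many starts. Each was searched on both strands. The others searched were TGTTTAC for forkhead factors, AGATAAG for erythroid-type zinc finger factors, and GTTGCCA as a half-site of RFX factors. No printed match overlaps another. For Hnf4a, which has 2 entries, the second, which starts inside the gene, is shown because it holds matches, and its capitals are the reverse complement of GTTAAT. The first, at chr2:163506607-163506856 by the start of the gene, holds no GTTAAT and 1 GTTGCCA.
Sftpb, chr6:72304360-72304609: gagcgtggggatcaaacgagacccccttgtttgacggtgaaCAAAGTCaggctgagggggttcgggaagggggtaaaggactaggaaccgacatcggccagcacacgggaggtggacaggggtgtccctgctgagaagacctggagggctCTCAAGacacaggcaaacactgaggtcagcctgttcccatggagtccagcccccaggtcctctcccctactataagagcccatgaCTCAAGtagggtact
Sftpa1, chr14:41131538-41131787: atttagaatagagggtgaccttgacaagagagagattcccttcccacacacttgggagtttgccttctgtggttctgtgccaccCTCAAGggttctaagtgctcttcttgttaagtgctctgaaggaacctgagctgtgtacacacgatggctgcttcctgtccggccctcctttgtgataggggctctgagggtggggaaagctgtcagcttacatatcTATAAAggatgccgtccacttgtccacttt
G6pc, chr11:101367466-101367715: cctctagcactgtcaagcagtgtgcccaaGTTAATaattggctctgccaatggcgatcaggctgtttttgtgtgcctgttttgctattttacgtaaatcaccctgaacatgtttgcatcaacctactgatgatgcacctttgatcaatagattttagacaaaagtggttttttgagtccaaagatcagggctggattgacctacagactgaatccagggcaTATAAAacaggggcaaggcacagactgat
Hnf4a, chr2:163546905-163547154: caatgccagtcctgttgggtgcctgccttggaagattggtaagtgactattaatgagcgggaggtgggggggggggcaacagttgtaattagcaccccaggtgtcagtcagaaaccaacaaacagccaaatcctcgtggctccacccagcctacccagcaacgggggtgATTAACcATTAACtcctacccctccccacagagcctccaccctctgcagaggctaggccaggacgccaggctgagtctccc
The Sftpb window holds CTCAAG 2 times, at 100 and 15 bases before the start, and CAAAGTC 1 time. Sftpa1 holds CTCAAG 1 time, 166 bases before the start, and TATAAA 30 bases before it. G6pc holds GTTAAT 221 bases before the start and TATAAA 29 bases before it, and Hnf4a holds the half-site 2 times on the minus strand, 81 and 74 bases before its start. For counts, 300 bases from 250 before to 50 after the start were searched. Over all 32851 promoters CTCAAG was found in 15.9%, CAAAGTC in 4.44%, GTTAAT in 7.1%, TATAAA in 13.6%, TGTTTAC in 3.65%, AGATAAG in 3.04% and GTTGCCA in 4.38%. Promoters were present for 1598 genes called higher and 1831 called lower. GTTAAT was in 9.48% of the 2300 promoters of genes called lower, in 4.81% of the 2101 of genes called higher, and in 5.39% of those of all genes tested. CAAAGTC was in 7.04% against 5.05%, with 4.48% over genes tested, while CTCAAG was in 14.7% against 14.9%. GTTGCCA ran the other way, in 2.61% of promoters of lower genes against 4.33% of those of higher genes, with 3.8% over genes tested. It was held by 2 of 15 promoters of called cilia genes. Among 11 promoters of called type 2 genes 4 (36.4%) held CTCAAG, and 7 of 38 promoters (18.4%) of called solute carriers held GTTAAT. The latter was in 2 of 27 promoters (7.41%) of called brush border genes and 3 of 37 (8.11%) of called amino acid breakdown genes, below the 9.48% of promoters of all lower genes. TGTTTAC was in 4.22% of promoters of lower genes and 2.81% of those of higher genes, with 3.03% over genes tested. For TATAAA these shares were 11.7%, 9.33% and 8.56%. These matches describe letters and are not binding sites, and a window without a match says nothing of a factor.

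Endothelial genes were higher throughout. All 21 genes of the endothelial identity list were called higher, 20 of them above every other library and 4 tested only through lung, with a median of 3.03. Cldn5, the tight junction protein of endothelium, had levels of 176 and 231 in lung and 1.79 to 7.10 elsewhere, a difference of 5.29 ± 0.19 (SE). Calcrl and Ramp2, which together form the adrenomedullin receptor, differed by 4.64 ± 0.19 (SE) and 4.5 ± 0.17 (SE), and Cdh5, the adherens junction cadherin, by 4.04 ± 0.15 (SE). Pecam1, present on all endothelium, had 54.6 and 57.2 in lung and 2.29 to 5.04 in the other libraries. The exception in order was Emcn, a sialomucin, which was highest in kidney, 7.91 and 9.57 against 7.03 and 6.58 in lung.

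All 20 genes listed for lung capillaries were also called higher, with a median of 2.49, and 6 were tested only through lung. Tmem100, a membrane protein downstream of BMP signals, differed by 6.39 ± 0.16 (SE), thrombomodulin (Thbd), which turns thrombin to anticoagulant use, by 4.91 ± 0.24 (SE), and the BMP9 receptor Acvrl1 by 4.48 ± 0.16 (SE). Prx, a PDZ protein also known from myelin, had 15.6 and 14.6 in lung and at most 0.173 elsewhere, and Rasgef1a, an exchange factor for small GTPases, had 24.1 and 21.7 and at most 0.240. Car4, the carbonic anhydrase of capillary walls, reached similar levels in lung, 74.3 and 72.9, kidney, 66.4 and 102, and small intestine, 55.4 and 62.5, and was low only in liver. Ace, the angiotensin-converting enzyme, was higher in small intestine, 147 and 152, than in lung, 87.6 and 85.0. Of 18 genes of vascular tone 15 were tested, 5 only through lung, and 12 were called higher and 1 lower, with a median of 2.25. The prostacyclin synthase Ptgis differed by 3.32 ± 0.22 (SE), and the soluble guanylate cyclase subunits Gucy1a1 and Gucy1b1 by 2.72 ± 0.15 (SE) and 3.14 ± 0.15 (SE). Vipr1, a receptor for vasoactive intestinal peptide, was the 1 called lower, with 0.418 and 0.475 in lung and 23.4 and 37.2 in small intestine. Of 16 leukocyte adhesion genes 13 were tested, 2 only through lung, and 9 were called higher with a median of 2.24, among them Icam1 and Icam2, ligands for leukocyte integrins, with 3.58 ± 0.16 (SE) and 4.09 ± 0.16 (SE).

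Most of the listed matrix genes were called higher. In the elastic fibre list 14 of 18 genes tested were called higher and none lower, with a median of 1.94, and 5 were tested only through lung. Elastin (Eln) had levels of 30.0 and 26.5 in lung against 0.536 to 1.04 elsewhere. Mfap4 and Mfap2, proteins of the microfibrils on which elastin is laid down, differed by 5.96 ± 0.18 (SE) and 4.23 ± 0.12 (SE), and the crosslinking oxidases Lox and Loxl1 by 2.44 ± 0.13 (SE) and 2.85 ± 0.13 (SE). Fbln1 did not follow, with 35.4 and 39.2 in small intestine above 7.91 and 7.44 in lung. Of 20 collagens, 4 tested only through lung, 14 were called higher and 1 lower, with a median of 1.61. Col1a1, Col3a1 and Col4a1, the chains of interstitial fibres and of basement membrane, differed by 2.42 ± 0.25 (SE), 2.36 ± 0.18 (SE) and 2.24 ± 0.16 (SE). The lower one was Col18a1, the precursor of endostatin, through liver, 100.5 and 87.2 against 2.62 and 2.67. Laminins and integrins had 14 of 20 tested called higher, 4 of the 20 tested only through lung, with a median of 1.45, and Npnt, the ligand of integrin α8β1, reached 46.3 and 52.9.

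**Figure D3:**
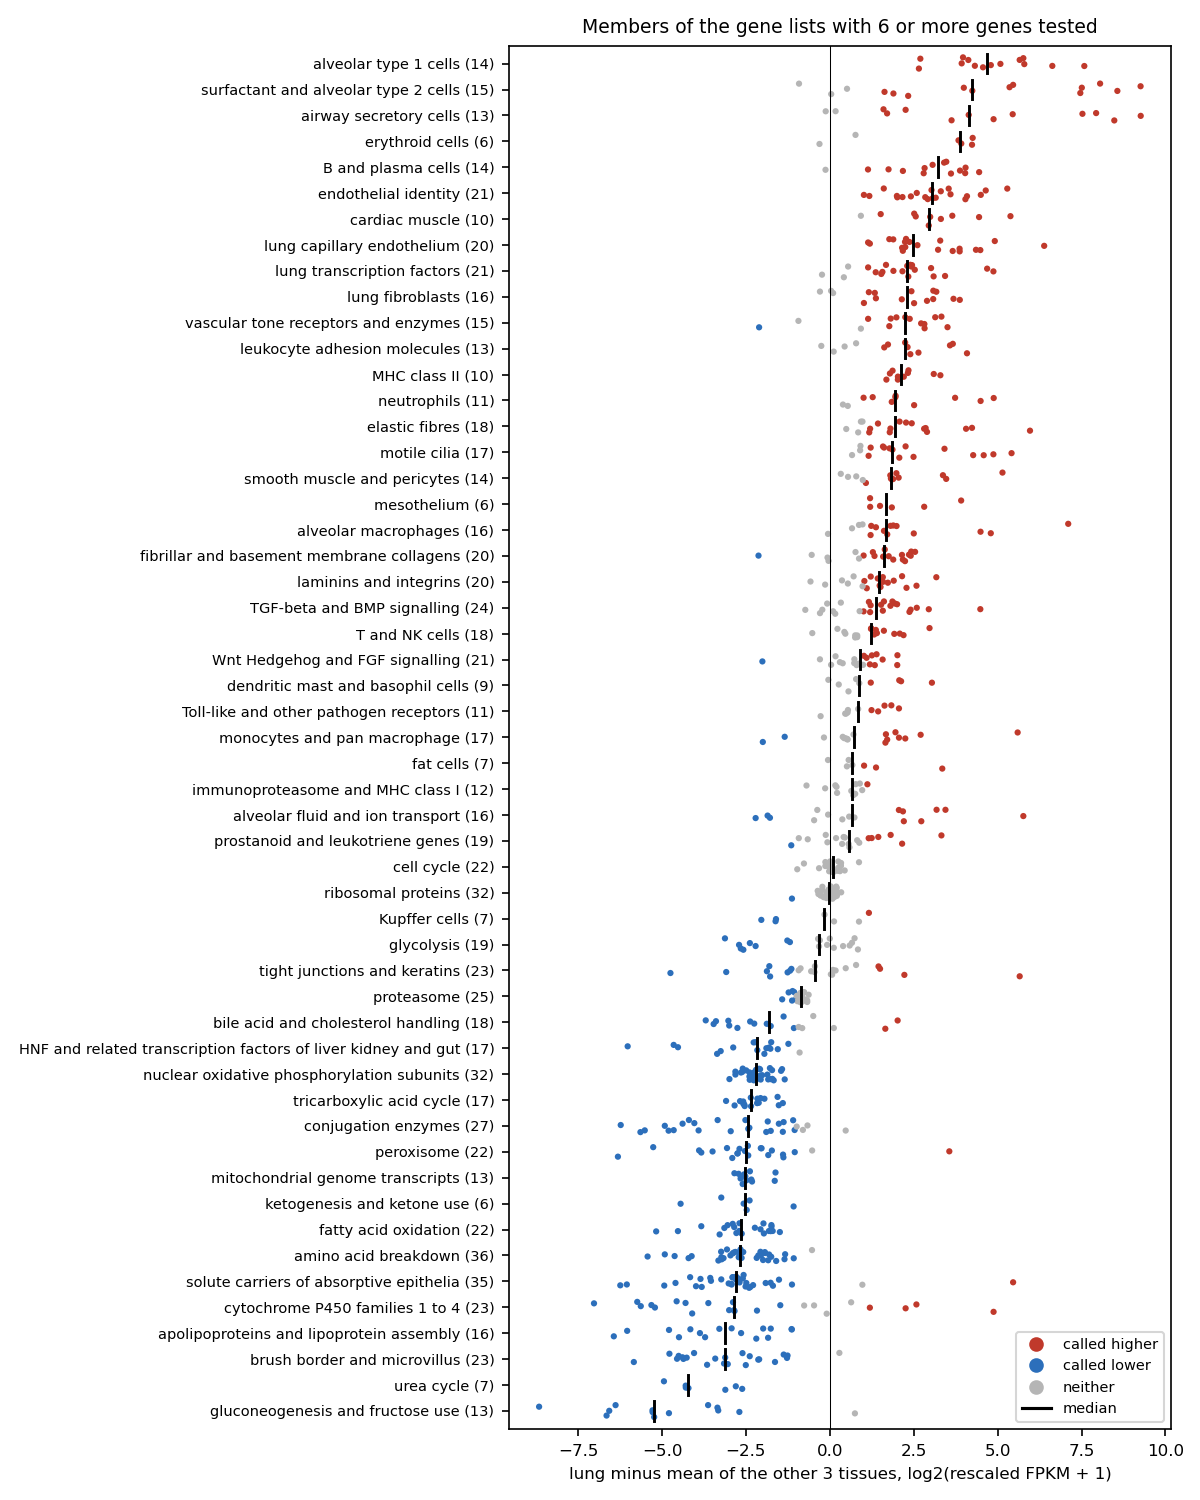
Difference between lung and the mean of the other 3 tissues, in log2(rescaled FPKM + 1), for each tested member of the gene lists with 6 or more tested members, whose number is in parentheses. Points are genes, red if called higher and blue if called lower, and the bar is the median of the list; medians run from 4.68 for alveolar type 1 cells to -5.24 for gluconeogenesis and fructose use.

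Fibroblast genes were called higher in 13 of 16 cases and smooth muscle and pericyte genes in 10 of 14, none lower, with medians of 2.29 and 1.83, and 6 and 5 of them were tested only through lung. Limch1, an actin-associated protein, and Dpt, a small matrix protein, differed by 3.87 ± 0.13 (SE) and 3.68 ± 0.16 (SE). The neutral amino acid carrier Slc7a10 had 8.28 and 6.78 in lung, was listed at 0 in 5 of the 6 other libraries and had 0.0399 in the remaining one. Cox4i2, the hypoxia isoform of a cytochrome oxidase subunit found in pericytes, was the highest of its list, 5.14 ± 0.23 (SE). Contractile genes of visceral smooth muscle were higher in small intestine, for example Actg2 with 59.1 and 53.1 against 8.87 and 8.30, and Myh11 with 28.8 and 24.7 against 8.68 and 8.62.

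Of 16 alveolar macrophage genes 12 were called higher and none lower, with a median of 1.66, and 4 were tested only through lung. Chil3, a chitinase-like lectin, had 190.1 and 154 in lung and at most 0.568 elsewhere, and the ribonucleases Ear1 and Ear2 differed by 4.49 ± 0.12 (SE) and 4.79 ± 0.18 (SE). Marco, the scavenger receptor of these cells, was uneven, 3.63 and 0.836 in the lung libraries against 2.98 and 2.89 in liver, and was not called. Lyz2, a lysozyme that type 2 cells also make, had 2901 and 2545 in lung against 16.2 to 102. It led a list of 17 monocyte and general macrophage genes, in which 8 were called higher and 2 lower with a median of 0.70, and 3 were tested only through lung. The lower ones included Plac8, with -1.35 ± 0.22 (SE), which turned to 0.13 with equal sums. Csf1r, the receptor these cells need to live, had 12.5 and 14.2 in lung and 14.8 and 13.5 in liver, and the complement chains C1qa, C1qb and C1qc had differences of 0.47 ± 0.22 (SE), 0.38 ± 0.23 (SE) and 0.42 ± 0.25 (SE), with no call. Of 7 Kupffer cell genes tested 3 were called lower and 1 higher. The lectin Clec4f was listed at 0 in both lung libraries and had 66.7 and 60.7 in liver, Vsig4, a complement receptor, had 0 and 0.0571 and 31.4 and 29.6 in those organs, and Cd5l differed by -1.61 ± 0.12 (SE). The higher one was Id3, a factor of many cell types, by 1.16 ± 0.23 (SE). With the 6 other libraries as 1 group, 5 alveolar macrophage genes were called higher.

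Genes of antigen presentation by class II molecules were all higher, 10 of 10 and all above every other library, with a median of 2.11, and 1 was tested only through lung. Cd74, the invariant chain, had 919 and 773 in lung and 66.3 to 530.4 elsewhere, with small intestine next at 382 and 530.4. Among 12 class I and immunoproteasome genes 1 was called, the peptide transporter Tap2, by 1.12 ± 0.14 (SE), and the median was 0.67. B cell and plasma cell genes were called higher in 13 of 14 cases, with a median of 3.23, and 4 were tested only through lung. Cd79a, of the B cell receptor complex, differed by 4.03 ± 0.18 (SE), and Ighm by 4.45 ± 0.16 (SE). Igha and Jchain, which build the dimeric IgA of mucosal surfaces, were shared with small intestine, where Igha had 3128 and 1275 against 1508 and 792 in lung. T and NK cell genes had 10 of 18 tested called higher, 6 of the 18 tested only through lung, with a median of 1.23. The cytotoxic protease Gzma was higher in small intestine, 87.3 and 79.7, than in lung, 7.96 and 10.9. With the 6 other libraries as 1 group, 5 class II and 3 T and NK cell genes were called higher. Of 14 dendritic, mast and basophil genes 9 were tested, 7 only through lung, and 4 were called higher with a median of 0.88. These were Ccr7, the receptor that guides dendritic cells to lymph nodes, by 3.04 ± 0.18 (SE), the lectins Clec9a and Cd209a by 2.12 ± 0.12 (SE) and 2.07 ± 0.22 (SE), and the mast cell protease Cpa3 by 1.22 ± 0.08 (SE).

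The lung libraries differed little in most genes, with a median absolute difference of 0.12 on the log2 scale and 289 genes over 2-fold apart, but immunoglobulin segments and neutrophil genes differed more. Of the genes called higher, 75 differed by more than 2-fold between them, 53 higher in replicate 1 and 22 in replicate 2. Immunoglobulin segments supplied 52 of the 75, with 42 higher in replicate 1 and 10 in replicate 2, out of 131 segments called. The constant region Igkc itself had 10478 and 5108. Neutrophil genes went the other way. S100a8 and S100a9 form calprotectin, and S100a8 had 13.0 and 58.2 in replicates 1 and 2, while S100a9 had 19.99 and 113. Of the granule proteins, Ngp had 1.11 and 16.5 and Camp had 0.893 and 7.83. Of 16 neutrophil genes 11 were tested, and 9 were called higher with a median of 1.95, 8 of the 11 tested only through lung. Without lung replicate 2 the list fell to 5 called and a median of 0.98, and without lung replicate 1 it had 9 called and a median of 3.06, so the size of the neutrophil shift rested on 1 library. The transcripts of immunoglobulin segments, and those of the near-identical Hba-a1 and Hba-a2, can share reads, so the split among them is uncertain.

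**Figure D4:**
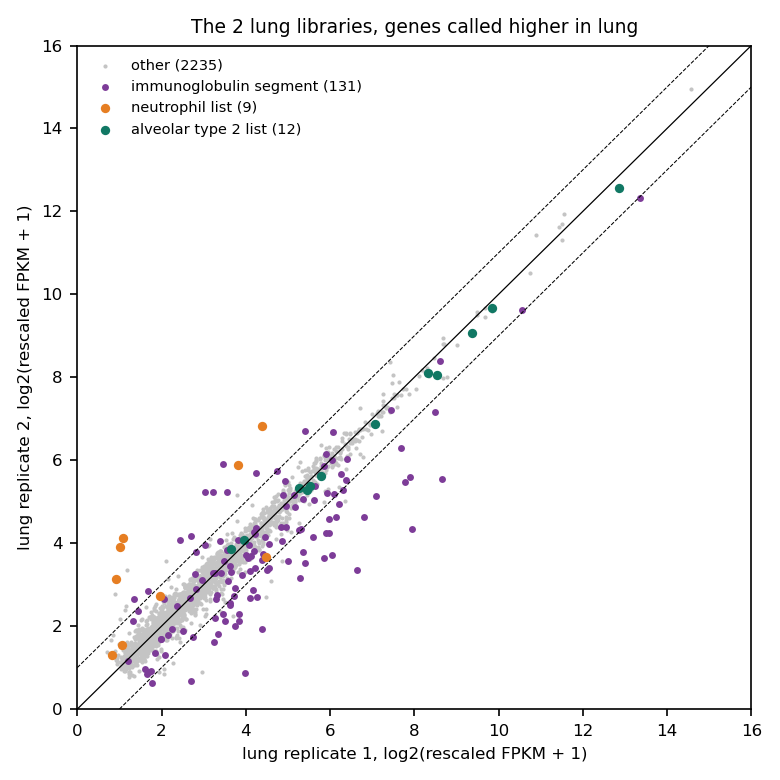
Levels of the 2387 genes called higher in lung in replicate 1 (horizontal axis) and replicate 2 (vertical axis), as log2(rescaled FPKM + 1), with the line of equality and dashed lines at 2-fold. The 12 alveolar type 2 genes stay near the line, 5 of 9 neutrophil genes lie above the upper dashed line, and 42 of 131 immunoglobulin segments lie below the lower one.

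Several signalling pathways had members higher in lung. Of 24 TGF-β and BMP genes, 6 tested only through lung, 16 were called higher and none lower, with a median of 1.37. They included Smad6, an inhibitor of BMP signals, and the ligand Bmp6, with 2.95 ± 0.20 (SE) and 2.41 ± 0.13 (SE). Bmpr2, a receptor in which human mutations cause pulmonary hypertension, differed by 2.37 ± 0.17 (SE). Of 21 Wnt, Hedgehog and FGF genes 9 were called higher and 1 lower, median 0.89, with 9 tested only through lung. The ligands Fgf7 and Fgf10, which act on lung epithelium, differed by 2.01 ± 0.11 (SE) and 1.34 ± 0.08 (SE), though Fgf10 reached only 1.53 and 1.89. Sonic hedgehog (Shh) had 1.37 in both lung libraries, and Indian hedgehog (Ihh), the 1 called lower, had 0.0185 and 0.0834 in lung and 14.4 and 13.7 in small intestine. In the prostanoid and leukotriene list 6 of 19 tested were called higher and 1 lower, 7 of the 19 tested only through lung, with a median of 0.56. Among the higher were Hpgd, which inactivates prostaglandins, with 193 and 189.7, and the lipoxygenase partner Alox5ap with 3.18 and 2.80. The lower one was Ptgds, a prostaglandin D synthase, by -1.15 ± 0.22 (SE). Of 18 pathogen receptors 11 were tested, 4 only through lung, and 5 were called higher with a median of 0.84. These were Cd14, which presents endotoxin, by 2.06 ± 0.25 (SE), the peptidoglycan sensor Nod1 by 1.83 ± 0.13 (SE), Tlr1, Tlr2 and the fungal receptor Clec7a.

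Of 16 genes of alveolar fluid and ion transport, 2 tested only through lung, 7 were called higher and 3 lower, with a median of 0.65. The 3 subunits of the epithelial sodium channel, which clears fluid from the air spaces, were higher in lung than in any other library. Scnn1a had 36.2 and 33.9 against 22.0 and 16.05 in kidney, and Scnn1b and Scnn1g differed by 3.18 ± 0.12 (SE) and 3.44 ± 0.14 (SE). The chloride transport genes Slc26a9 and Ano1 differed by 2.18 ± 0.07 (SE) and 2.20 ± 0.12 (SE). The genes called lower included the glycerol channel Aqp3, by -1.86 ± 0.19 (SE), and Atp1b1, a chain of the sodium pump that drives this transport, by -1.79 ± 0.24 (SE).

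Genes of mitochondrial energy use were lower in lung. All 22 genes of fatty acid oxidation, all 32 nuclear subunits of oxidative phosphorylation and all 13 protein-coding transcripts of the mitochondrial genome were called lower and stood below all 6 other libraries. Their medians were -2.66, -2.21 and -2.52, against -0.02 over all genes tested and 17.3% of all genes below every other library. All 17 genes of the tricarboxylic acid cycle were called lower, 16 of them below every other library, with a median of -2.35. Ehhadh, of peroxisomal oxidation, had 2.13 and 2.11 in lung against 39.5 to 224, and Cpt2, the inner membrane carnitine transferase, differed by -3.29 ± 0.18 (SE). Atp5b, the catalytic subunit of ATP synthase, had 76.2 and 73.0 in lung and 362 to 928 in the others, and the cytochrome subunit Cyc1 differed by -2.82 ± 0.23 (SE). The mitochondrial mt-Co1 had 8332 and 7034 in lung, 52234 and 88263 in kidney, 35327 and 42713 in small intestine and 65784 and 60614 in liver. Idh3a was the cycle gene that overlapped, since liver had 4.75 and 6.09 and lung 5.13 and 5.76. How many of these were called depended on the scaling. With the values as deposited 13 of fatty acid oxidation, 18 of oxidative phosphorylation, 11 of the mitochondrial genome and 11 of the cycle were called lower, and with equal sums 12, 7, 6 and 7. Of the mitochondrial transcripts 3 were called after quantile normalization, with a median of -0.87. Without lung replicate 1 or 2 fewer were called, 6 and 5, but the medians of -2.69 and -2.42 stayed close to -2.52.

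Enzymes that release glucose or use fructose had the lowest median of the 57 lists. Of 13 genes of gluconeogenesis and fructose use 12 were called lower, 11 of them below every other library, with a median of -5.24. G6pc, the phosphatase of the last step, had 0.818 and 0.386 in lung and 29.7 to 458 elsewhere, a difference of -6.57 ± 0.22 (SE) with an adjusted p of 1.1e-06 in limma. Pck1 and Fbp1, of the earlier steps, differed by -6.39 ± 0.47 (SE) and -6.65 ± 0.22 (SE). The exception was the mitochondrial isoform Pck2, low in all tissues, with 2.88 and 2.86 in lung and 0.514 to 2.503 elsewhere, and not called. Glycolysis was lower in part. The median of its 19 tested genes was -0.32, and it turned to 0.57 with the values as deposited and 0.95 with equal sums. In all, 8 were called lower and none higher, led by Tpi1, Pgk1 and Gapdh with -3.13 ± 0.20 (SE), -2.71 ± 0.18 (SE) and -2.66 ± 0.24 (SE), all serving both directions of the pathway. Hexokinase Hk1 and pyruvate kinase Pkm, which act only downward, had differences of 0.59 ± 0.15 (SE) and 0.12 ± 0.15 (SE) and were not called.

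Breakdown of amino acids was called lower in 35 of 36 genes and the urea cycle in 7 of 7, with medians of -2.67 and -4.21. Only 14 and 2 of these stood below every other library, and many were abundant in liver alone or in liver and kidney. Tdo2, which opens the ring of tryptophan, had 859 and 735 in liver and less than 1.1 in every other library. Cps1 and Otc, the first steps of urea synthesis in mitochondria, differed by -4.94 ± 0.24 (SE) and -4.29 ± 0.17 (SE), with kidney as low as lung. Glud1 and Got1 were below every other library, by -2.68 ± 0.28 (SE) and -3.17 ± 0.17 (SE). Ketogenesis and ketone use was called lower in 6 of 6, with a median of -2.52 and the lowest difference in Bdh1, which interconverts ketone bodies, by -4.45 ± 0.16 (SE).

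Peroxisomal genes were called lower in 20 of 22, drug-metabolizing P450 genes in 15 of 23 and conjugation enzymes in 23 of 27, with medians of -2.49, -2.86 and -2.43. Of the 22, 23 and 27 genes, 14, 4 and 17 stood below every other library. The P450 list as a whole set lung apart from liver (median log2 level 8.29 and 6.94) and small intestine (3.98 and 4.36). It did so little from kidney, where the median level of 1.56 and 1.91 was near the 1.58 and 1.24 of lung. Ephx2, an epoxide hydrolase, had 1.95 and 1.52 in lung and 133 to 379 elsewhere. The 1 listed gene called higher was Pmp22, with 114 and 119.7 in lung, and this symbol stands for a membrane protein of myelin and other cells and not of the peroxisome. Cyp2d26 differed by -7.03 ± 0.19 (SE) and the fatty acid hydroxylase Cyp4a10 by -5.74 ± 0.46 (SE). The 4 P450 genes called higher were Cyp2f2, Cyp2s1, Cyp2b10 and Cyp1a1, and only Cyp2s1 stood above every other library, with 14.7 and 13.2. Cyp2b10 had 74.7 and 66.1 in lung and 183 and 217 in small intestine, and Cyp1a1 was uneven in lung, 21.5 and 5.52. Cyp4b1 was abundant in lung, 134 and 164, but more so in kidney, 1068 and 1598. The glucuronosyltransferase Ugt2b5 differed by -6.23 ± 0.25 (SE) and the acetyltransferase Nat8 by -5.65 ± 0.24 (SE). The carboxylesterases Ces2c and Ces1f hydrolyse drugs and lipids. Ces2c had 1.23 and 0.461 in lung and at least 49.4 elsewhere, and Ces1f had 1.60 and 1.15 and at least 64.6. Sult1a1, a phenol sulfotransferase, was not called, with 33.3 and 25.4 in lung between liver and kidney. Reads of the Ugt2b, Ces and Cyp families can be split among close paralogs, so single members are less certain than the lists.

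Carriers and surface proteins of absorptive epithelium were lower. Of 35 solute carriers 33 were called lower and 1, Slc34a2, higher, with a median of -2.79, and 19 were below every other library. The fatty acid transporter Slc27a2 had 2.09 and 0.643 in lung and 22.5 to 717 elsewhere, a difference of -6.25 ± 0.27 (SE). Slc34a1, which reclaims phosphate in the kidney, had 958 and 911 there and 1.57 and 0.263 in lung, the reverse of the order of its relative Slc34a2. Of 23 brush border genes 22 were called lower, median -3.12. Cdhr5 and villin (Vil1), which build microvilli, differed by -5.84 ± 0.18 (SE) and -4.51 ± 0.21 (SE), while ezrin (Ezr), which links actin to the membrane, was not called at 40.2 and 40.6 in lung. All 16 genes of the apolipoprotein and lipoprotein list were called lower, median -3.11, though only 4 stood below every other library. The list holds Plg, which encodes plasminogen, the precursor of a clot-dissolving protease, and not a lipoprotein gene. With the 6 other libraries as 1 group, where the spread between organs enters the error, 8 solute carriers, 4 brush border genes, 1 urea cycle gene and none of the apolipoprotein genes were called lower. The number called changed by over 1.5 times in 27 of the 57 lists in that setting, which left 3 genes of amino acid breakdown, 9 of the peroxisome, 2 P450 genes, 5 of conjugation, 3 of ketogenesis, 3 of the listed transcription factors and no bile acid gene called lower. Bile acid and cholesterol genes had 12 of 18 called lower and 2 higher, and the higher ones were Abcg1, a sterol exporter, and Soat1, which esterifies cholesterol, with 2.02 ± 0.10 (SE) and 1.65 ± 0.12 (SE).

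Junction proteins and keratins followed no single direction, with 4 of 23 called higher, 8 lower and a median of -0.46. Cldn18, Krt7, Krt19 and the scaffold Tjp1 were higher, and Cldn2 and Cldn15, the paracellular pores of kidney and gut, were lower, with -4.75 ± 0.13 (SE) and -1.80 ± 0.12 (SE). Keratin Krt8 had 56.3 and 41.2 in lung and 898 and 1143 in small intestine.

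Housekeeping lists marked the scale of the comparison. Of 32 ribosomal protein genes 1 was called, Rps2, by -1.13 ± 0.25 (SE), which turned positive with the values as deposited, after quantile normalization and with equal sums, and the list had a median of -0.03. The median was 1.14 with the deposited values, 1.11 after quantile normalization and 1.5 with equal sums, so whether ribosomal genes are level depends on the scaling. Proteasome genes stood below every other library in 24 of 25 cases with a median of -0.87, and 6 were called lower, but the median turned to 0.27 with the deposited values and 0.62 with equal sums. No gene of 22 in the cell cycle list was called by limma, where 7 had an unadjusted and 6 an adjusted p below 0.05 with smaller differences, and the median was 0.09. The count differed between alternatives, with 6 called higher from the values as deposited, 16 with equal sums, 5 higher and 2 lower with a pseudocount of 0.1, and 8 higher and 2 lower by limma-voom on recovered reads. Mki67 had 1.66 and 1.71 in lung and 5.94 and 6.23 in small intestine, where crypt cells divide.

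**Figure D5:**
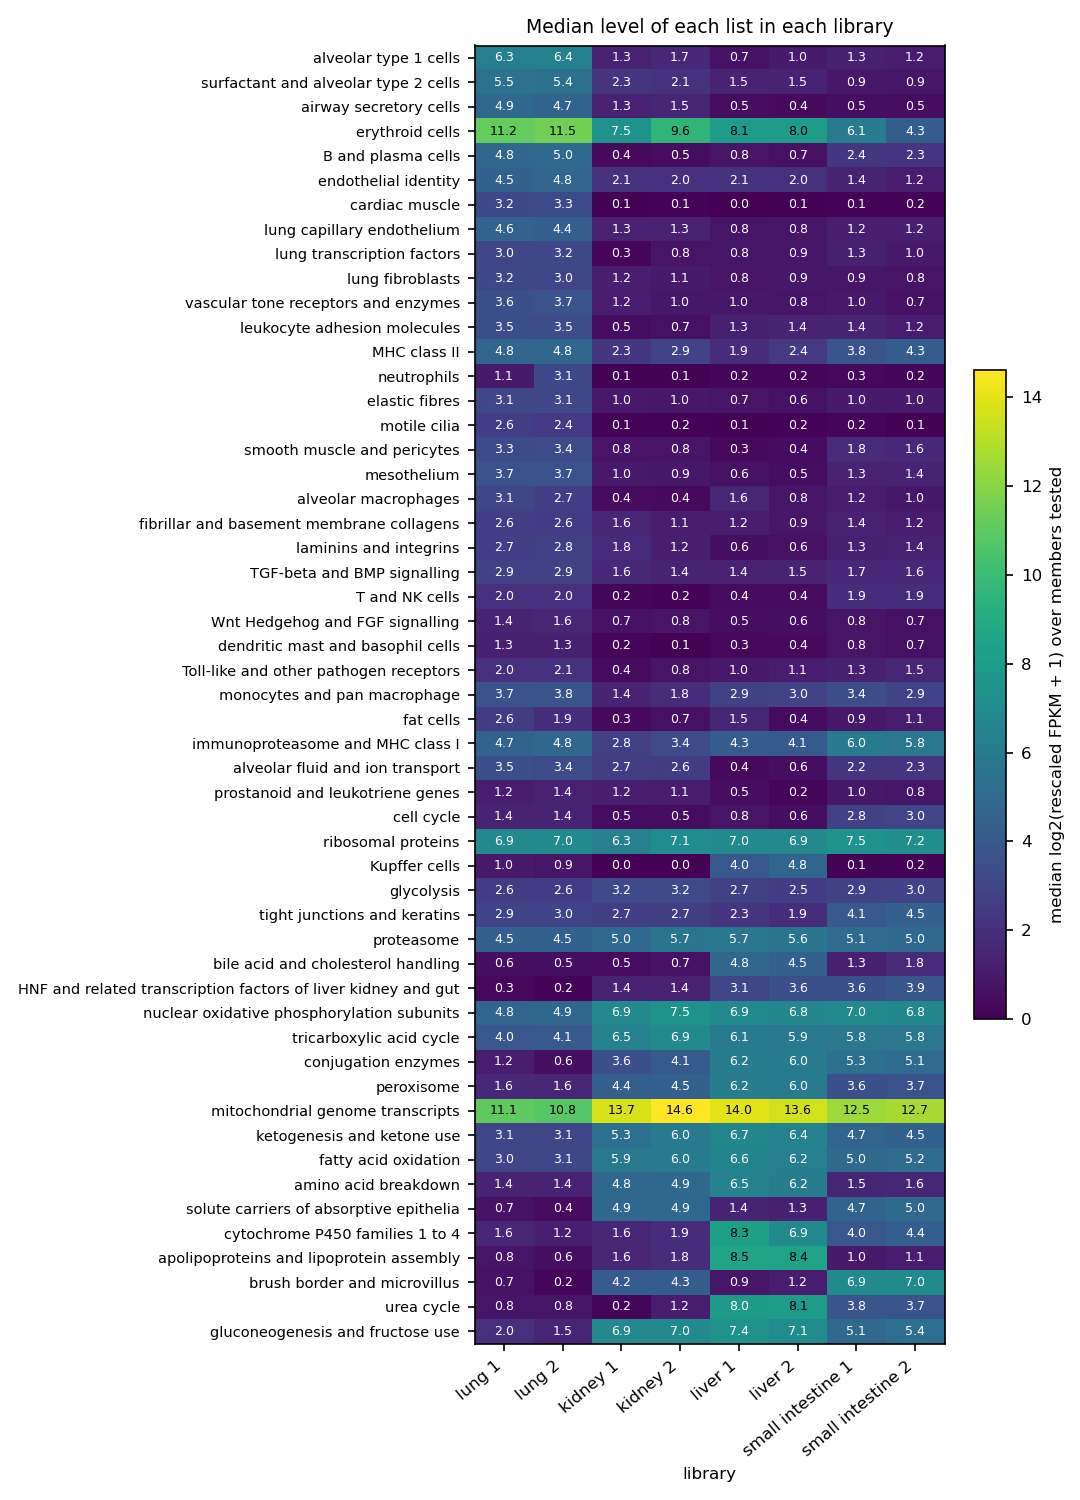
Median log2(rescaled FPKM + 1) over the tested members of each gene list (rows, in order of the difference between lung and the others) in each of the 8 libraries (columns), with the value printed in each cell. The lung columns tend to be higher than the others in the upper rows and lower in the lower rows, with exceptions among the lower rows such as kidney replicate 1 for the urea cycle and bile acids, kidney and liver for tight junctions and keratins, and liver replicate 2 for glycolysis, which lie below lung. Rows with a positive difference have exceptions too, such as small intestine above lung for the cell cycle and for immunoproteasome and MHC class I. Kidney, liver and small intestine share high values for mitochondrial genes, and the neutrophil row differs between lung replicate 1 and replicate 2.

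Lists for muscle, red cells, mesothelium, fat, lymphoid organs, thyroid and oesophagus were described too. Whether such transcripts came from the lung itself or from tissue beside it was not tested, nor was their part in the other results. Of 15 cardiac genes 10 were tested, 8 only through lung, and 9 were called higher with a median of 2.97. Actc1, cardiac actin, had 45.0 and 47.2 in lung and at most 0.298 elsewhere, and the atrial light chain Myl7 60.1 and 56.5, while the ventricular Myl2 had 0.0289 and 0. Of 10 skeletal muscle genes 5 were tested, 3 only through lung, and the troponins Tnnt3 and Tnni2 were called higher. Both were uneven between the lung libraries, with 3.81 and 1.18 for Tnnt3 and 3.16 and 0.962 for Tnni2, and 1 gene of the list was called without lung replicate 1 and 4 without lung replicate 2. Acta1 was uneven too, with 14.7 and 0.138 in the lung libraries, and its difference of 1.04 was -0.85 without replicate 1 and 2.93 without replicate 2. The 4 haemoglobin genes were called higher, out of 6 tested erythroid genes with a median of 3.87, and Hba-a1 had 2769 and 3137 in lung and 18.3 to 819 elsewhere. Alas2, the haem synthesis enzyme of red cell precursors, was not called, with 8.21 and 9.66 in lung and 64.3 and 50.3 in liver. Of 8 mesothelial genes 6 were tested, 1 only through lung, and all 6 were called higher with a median of 1.67, Msln, a surface protein of pleural cells, by 3.91 ± 0.28 (SE). Of 7 fat cell genes tested, 3 only through lung, 3 were called higher with a median of 0.67, which were Cfd, Adipoq and Retn. Of 10 thymus and lymph node genes 5 were tested and 4 called higher, which were the complement receptor Cr2, by 1.75 ± 0.10 (SE), and the lymphoid chemokines Ccl21a, Ccl19 and Cxcl13 by 3.66 ± 0.18 (SE), 3.66 ± 0.22 (SE) and 3.10 ± 0.28 (SE). The thymocyte recombinase Rag1 had 0 and 0.0192. Of 7 thyroid and oesophagus genes 1 was tested, Pax8, which was listed at 0 in both lung libraries and called lower through kidney, and the thyroid hormone precursor Tg had 0.114 and 0.0811 in lung.

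Transcripts particular to 1 organ were present at trace levels in the others, and the 2 lung libraries differed in this. For 41 liver transcripts, 20 of small intestine and 2 of kidney with a level of at least 1000 at home and below 1% of it elsewhere, the median level in lung replicate 1 was 0.0748%, 0.135% and 0.16% of that at home. In lung replicate 2 it was 0.04%, 0.0258% and 0.0326%. For 3 lung transcripts of this kind it was 0.0808% and 0.262% in the kidney libraries and 0.371% and 0.387% in the liver libraries. The low lung values of G6pc and Pck1 were likewise higher in replicate 1, as were 36 of the 37 genes called lower that differed by more than 2-fold between the lung libraries. The part of such reads in the lowest lung values, and so in the size of the largest differences, was not tested.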

How the data were processed

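RNA-seq of poly(A) RNA from lung, kidney, liver and small intestine of male mice (C57BL/6 in the labels, C57BL/6J in the methods) gave 8 libraries, 2 for each tissue. The authors filtered reads with bbduk, aligned them with STAR 2.5.3a to the Ensembl mouse genome, and deposited FPKM values, computed by DESeq2 (its fpkm function). The counting program and its use of strand are not given in the sources used here.

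The deposited FPKM was multiplied by exon length (GENCODE M21, build GRCm38, 99.3% of genes matched). Steps among the low values then gave whole reads, within 0.02 reads, for 94.5% to 96.1% of low values. The totals were 9764426 and 12427339 reads for lung and 9164187 to 21444675 over all libraries, at which 3 reads of a 1 kb transcript are 0.14 to 0.327 FPKM, for counting error only. Libraries were rescaled by the median of ratios over 15137 genes, and genes with a deposited FPKM of at least 1 in 2 libraries were kept. limma 3.58.1 in R 4.3.3 (lmFit, eBayes with a trend) was fitted to log2(rescaled FPKM + 1) with 4 tissue groups, and lung was set against the mean of the others. P-values were adjusted by Benjamini-Hochberg over all 16328 genes tested. The 2 libraries of a tissue came from separate mice, per the methods. The p-values rest on the spread between the 2 libraries of a tissue, pooled over the 4 tissues and moderated across genes. Libraries of different tissues can share an animal, which the main fit leaves out. The fit was tried on simulated counts in which only a small set of genes changed, in lung alone, and the rescaling was left out. That trial therefore cannot show how the calls depend on the scaling.

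The comparison and the 57 gene lists were chosen with earlier results of these data known, so lists are described by counts and medians with no test. The 15 named higher and 15 named lower genes were those with the largest differences among called genes apart from all other libraries, with a mean FPKM of at least 10 in lung or in each other tissue, passing over predicted genes without a name. Members of the lists with the largest or smallest difference or a known role were also named. Other list members, among them those given where they went against the rest, were chosen after their values were seen. Alternatives changed the scaling, pseudocount, filter, variance model, grouping and libraries. Promoters came from RefSeq (GRCm38.p6). Some list members and 2 of the 15 named lower genes are not reported here.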

Additional observations from a re-analysis of the deposited data

How the results depend on the processing

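The 2387 genes called higher became 6652 with the values as deposited, 9691 with equal sums, 6234 with equal sums after leaving out mitochondrial genes, 3889 with a pseudocount of 0.1 and 4072 by limma-voom on recovered reads. The 2616 called lower became 1349 with the values as deposited, 1233 with equal sums and 862 with the 6 other libraries as 1 group. Genes above every other library became 8397 and 9995, and genes below 734 and 496, with the values as deposited and with equal sums. These scalings put the median of all genes at 0.82 and 1.23, against -0.02.
Leaving out 1 library in turn gave 2331 to 2405 higher and 2495 to 2724 lower. The genes taken by the naming rule kept their direction and call in all 19 alternatives. The median of the basal and neuroendocrine list turned to 0.14 with no filter, and that of the proteasome to 0.27 with the values as deposited and 0.62 with equal sums. Beside these, the median was not counted as the same in 52 of the 57 lists with the values as deposited and 51 with equal sums. It was so in 46 with equal sums after leaving out mitochondrial genes, 39 by limma-voom, 36 with a pseudocount of 0.1 and 14 after quantile normalization. The number called changed by over 1.5 times in 15 lists with the values as deposited and 22 with equal sums. In those scalings Rps2 turned to 0.050 and 0.41, and it was 0.12 after quantile normalization. Plac8 turned to 0.13 with equal sums. Without lung replicate 1 Acta1 was -0.85 and Hoxa5 -0.45, and without lung replicate 2 they were 2.93 and 1.53. Without kidney replicate 1 Hoxa5 was -0.11. With a library left out, the lone library of its tissue is assumed to vary like the others.

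Replicate numbers are shared between tissues, but no source states that a number marks 1 animal. Deviations of same-numbered libraries from their tissue means correlated at -0.22 to 0.03 over tissue pairs, so the numbers were not taken to pair the libraries. With the replicate number as a block 2390 genes were called higher and 2621 lower.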

Other observations

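Pseudogenes were few among the genes called higher. Of 1492 pseudogenes tested 247 were called lower in lung and 39 higher, which is 9.44% of all genes called lower and 1.63% of those called higher, against 9.14% of the genes tested. Immunoglobulin and T cell receptor segments fell on the other side, with 140 of 211 tested called higher and none called lower by limma. They made up 5.87% of all genes called higher, against 1.29% of the genes tested, while 14.6% of all genes tested were called higher. Of the 131 immunoglobulin segments called, 42 were over 2-fold higher in lung replicate 1 and 10 in replicate 2. Segments that passed the filter through lung alone were not counted apart.

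A set of 44 genes was at least 2-fold higher in each of lung replicate 1, kidney replicate 2 and both liver libraries than in each of the other 4 libraries, and the set was chosen after the values were seen. Of these 5 had a called difference, 4 are major urinary protein (Mup) genes and 10 are predicted genes. Khdrbs1, an RNA-binding protein, had 65.5 in lung replicate 1 and 7.22 in replicate 2. Hnrnpd, which binds AU-rich RNA, had 41.3 and 8.20. Hoxa5 belonged to the set, with 55.7 and 13.4 in lung, 4.44 and 82.6 in kidney, 1.44 and 2.16 in small intestine and 110 and 144 in liver. Trace levels of transcripts particular to small intestine were also higher in these libraries, at 0.135% of their level at home in lung replicate 1, 0.206% in kidney replicate 2 and 0.235% and 0.245% in liver, against 0.0258% in lung replicate 2 and 0.0349% in kidney replicate 1. The part of such reads in the division was not tested.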
